A study of Mus musculus with 16 samples.

Results

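Oxidative phosphorylation subunits are the proteins of the 4 respiratory chain complexes and of the ATP synthase in the inner mitochondrial membrane. Members were taken by symbol, as genes whose probe sets carry a single symbol of the Nduf, Sdh, Uqcr, Cox4 to Cox8 or Atp5 series, and each gene was represented by its probe set with the highest mean over 16 arrays. The rule gave 81 of 18193 measured genes: 33 of complex I, 4 of complex II, 8 of complex III, 19 of complex IV and 17 of complex V. Ndufa4 and Ndufa4l2 were placed in complex IV, where their proteins belong. Cox7a2l, a factor that joins complexes into supercomplexes, and Atp5mpl and Atp5md, small proteins of the ATP synthase membrane part, were kept as members. Subunits encoded by mitochondrial DNA lie outside the symbol rule, and so do the nuclear complex members Cyc1 and Ndufab1. Also left out were 9 probe sets with several symbols, a member symbol among them. Counts per complex are therefore counts of members, not of all nuclear subunits.

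The transcripts of these genes were read on 16 Affymetrix mouse arrays of 1 colour, in 7 groups of C57Bl6 wild type cells. Haematopoietic stem cells (HSC), the blood-forming cells of the bone marrow, were sorted from male steady-state mice aged 3 to 4 months (young, 3 arrays) or 21 to 24 months (aged, 3 arrays). HSC were also sorted from recipients of young or aged bone marrow (2 arrays each), for which the labels give no age. Induced pluripotent stem cells (iPSC) of young or aged haematopoietic origin (2 arrays each) and embryonic stem cells (ESC) of 2 suppliers, Open Biosystems and Primogenix (1 array each), were grown on mouse embryonic fibroblast feeders. HSC and iPSC arrays are labelled as biological replicates, without saying whether an iPSC array stands for a separate clone or whether animals were pooled, so a p-value here rests on array-to-array spread, which may be technical. In such bulk samples fewer expressing cells and less RNA per cell cannot be told apart.

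Complexes I, III and IV pump protons across the inner membrane while electrons pass from NADH to oxygen, complex II feeds in electrons from succinate, and complex V uses the proton gradient to make ATP. Each complex joins subunits encoded in the nucleus with, except for complex II, subunits encoded by mitochondrial DNA. Quiescent HSC are known for their reliance on glycolysis and for holding their mitochondria at low activity, and pluripotent cells are likewise known for high glycolytic flux.

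The labelled cell types were checked against marker genes. Of the 8 measured HSC markers, all 8 lay above the 25th percentile of all genes in each HSC group, and 4 did so in each iPSC group. Of the 10 pluripotency markers, all 10 did so in both iPSC groups and in ESC. In HSC, 5 did so in young and 4 in aged steady-state, and 4 in young and 3 in aged transplanted groups. The mean over these 10 was 10.46 to 10.58 in the iPSC arrays and 3.88 to 5.24 in the HSC arrays. Of 7 measured myeloid markers, 7 lay above that percentile in each steady-state HSC group, 6 in each transplanted group and 5 in each iPSC group. Ptprc, the pan-leukocyte antigen, had mean log2 intensities of 12.51 and 12.47 in young and aged steady-state HSC, 11.23 and 11.21 in young and aged transplanted HSC, and 3.40 and 3.42 in young-origin and aged-origin iPSC. The 4 transplanted arrays stood apart from the others in their control probe sets: beta-actin's log2 signal at the 3′ end minus that at the 5′ end was -0.26 to -0.05 in transplanted HSC, against 1.98 to 2.25 in steady-state HSC and 2.08 to 2.69 in iPSC. This control difference and transplantation cannot be told apart. Between steady-state HSC and iPSC the same measure did not overlap for 2 other controls: it was 1.22 to 1.88 against 2.49 to 2.74 for the transferrin receptor and 0.10 to 0.55 against 0.61 to 0.91 for pyruvate carboxylase. Its part in the members' differences was not tested.

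Nuclear subunit genes are known targets of a few transcription factors, so promoter windows from 250 bases before to 50 after the annotated start were searched on both strands for the core letters of 4 of them. RefSeq held a window for 66 of the 81 members. The core of nuclear respiratory factor NRF1 (GCGC, then any base, then TGCGC) was present in 15 of the 66 (22.7%), against 7.17% of 17492 coding genes. CCGGAAG, an ETS core bound by GABPA, was present in 25.8% of member windows against 12.9% of all. AANATGGC, the core of YY1, was found in 22.7% against 7.46%, and TNAAGGTCA, the core of ESRRA, in 4.55% against 1.19%. Counting only the bases before the start, the YY1 core was in 9.09% of members against 4.29% of all genes. In that count NRF1 had 16.7% against 5.84%, GABPA 18.2% against 10.2% and ESRRA 3.03% against 1.11%. None of these motifs contains another, and a match is a description of the sequence, not a bound site.

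The stretches below hold matches before the annotated start (RefSeq, GRCm38.p6, written along the gene's strand, motif letters in capitals). They are shown because the same letters stand before members that were higher in iPSC than in steady-state HSC (Cox6a1, Uqcr11, Atp5k and Ndufa8), before Sdha, which was lower, and before Sdhd, which was not called. Cox6a1 (minus strand, chr5:115348959-115349095) and Sdhd (minus strand, chr9:50603869-50603948) each hold an NRF1 and a GABPA core, Sdha (minus strand, chr13:74350241-74350358) holds 3 NRF1 cores, Atp5k (minus strand, chr5:108434420-108434469) and Ndufa8 (minus strand, chr2:36049339-36049388) hold an NRF1 core, and Uqcr11 (minus strand, chr10:80406861-80406907) holds a GABPA core.
Cox6a1: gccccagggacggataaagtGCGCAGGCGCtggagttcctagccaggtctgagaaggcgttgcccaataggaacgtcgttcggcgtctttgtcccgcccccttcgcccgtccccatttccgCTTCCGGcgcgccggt
Uqcr11: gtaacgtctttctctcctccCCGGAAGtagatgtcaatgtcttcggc
Atp5k: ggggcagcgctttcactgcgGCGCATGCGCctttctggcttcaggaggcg
Ndufa8: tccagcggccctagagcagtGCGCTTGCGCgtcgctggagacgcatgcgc
Sdha: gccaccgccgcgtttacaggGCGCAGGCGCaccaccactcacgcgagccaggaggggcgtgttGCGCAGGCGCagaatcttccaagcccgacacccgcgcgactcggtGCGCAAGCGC
Sdhd: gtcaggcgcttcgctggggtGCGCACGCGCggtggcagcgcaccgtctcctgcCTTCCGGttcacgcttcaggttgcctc

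The median log2 intensity over the 81 members was 9.75 to 10.20 in the 6 steady-state HSC arrays, 10.36 to 10.57 in the 4 transplanted arrays, 11.08 to 11.33 in the 4 iPSC arrays and 11.18 to 11.20 in the 2 ESC arrays. These ranges did not overlap between HSC of either kind and the pluripotent cells, while the iPSC range held both ESC arrays. Over all genes the array medians were 6.44 to 6.57 in steady-state HSC, 6.02 to 6.13 in transplanted HSC and 6.41 to 6.45 in iPSC. The brightness of a probe set depends on its own probes, so levels are compared here only within a gene, except where members are ranked by brightness.

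**Figure D1:**
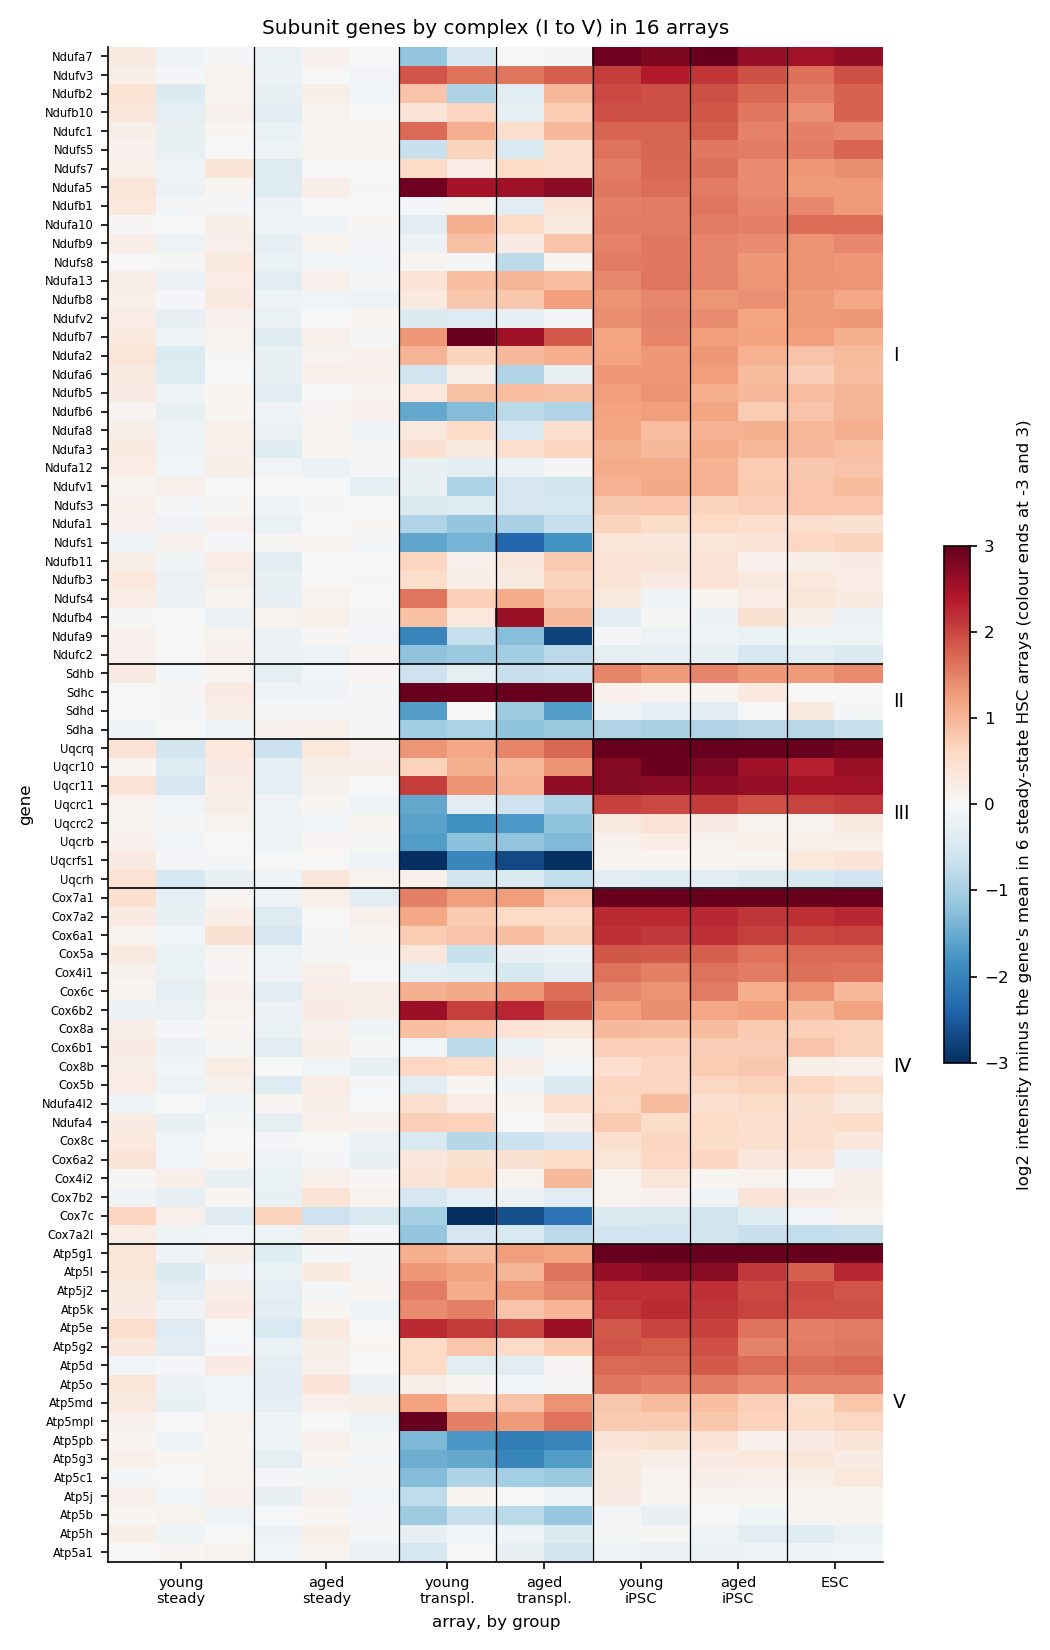
Heat map of the 81 subunit genes (rows, grouped by complex I to V and ordered within a complex by their mean in iPSC) in 16 arrays (columns, by group). Colour is the log2 intensity minus the gene's mean in the 6 steady-state HSC arrays. The iPSC and ESC columns are mostly red and much like each other, the steady-state columns are near 0, and the transplanted columns mix red and blue within every complex.

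The comparison of iPSC with steady-state HSC asks how the subunit genes differ between pluripotent cells of blood origin and the blood stem cells themselves. Of 80 members tested, 61 were higher in iPSC and 3 were lower at an adjusted p under 0.05 (limma with Benjamini-Hochberg adjustment, as for every adjusted p of a gene here). Over 13645 genes, 41.8% were called higher and 34.7% lower. The members' median log2 difference was 1.08 against 0.17 over all genes. Ranked by mean log2 intensity over all arrays, the brightest 27 members had 17 higher and 3 lower, with a median of 0.57. The middle 27 had 24 higher and 0 lower (1.37). Of the dimmest 27, 26 were tested, with 20 higher and 0 lower (1.06). The part of probe-set brightness in these differences was not tested. The 4 iPSC arrays did not overlap the 6 HSC arrays in 75% of the members tested and in 73.3% of all genes tested. Complex I had 29 of 33 members higher and 1 lower, complex III 4 of 8 higher, complex IV 15 of 18 higher and 1 lower, and complex V 12 of 17 higher. In complex II 1 of 4 members was higher and 1 lower. The median differences were 1.21 for complex I, -0.02 for complex II, 1.15 for complex III, 0.70 for complex IV and 0.84 for complex V.

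**Figure D2:**
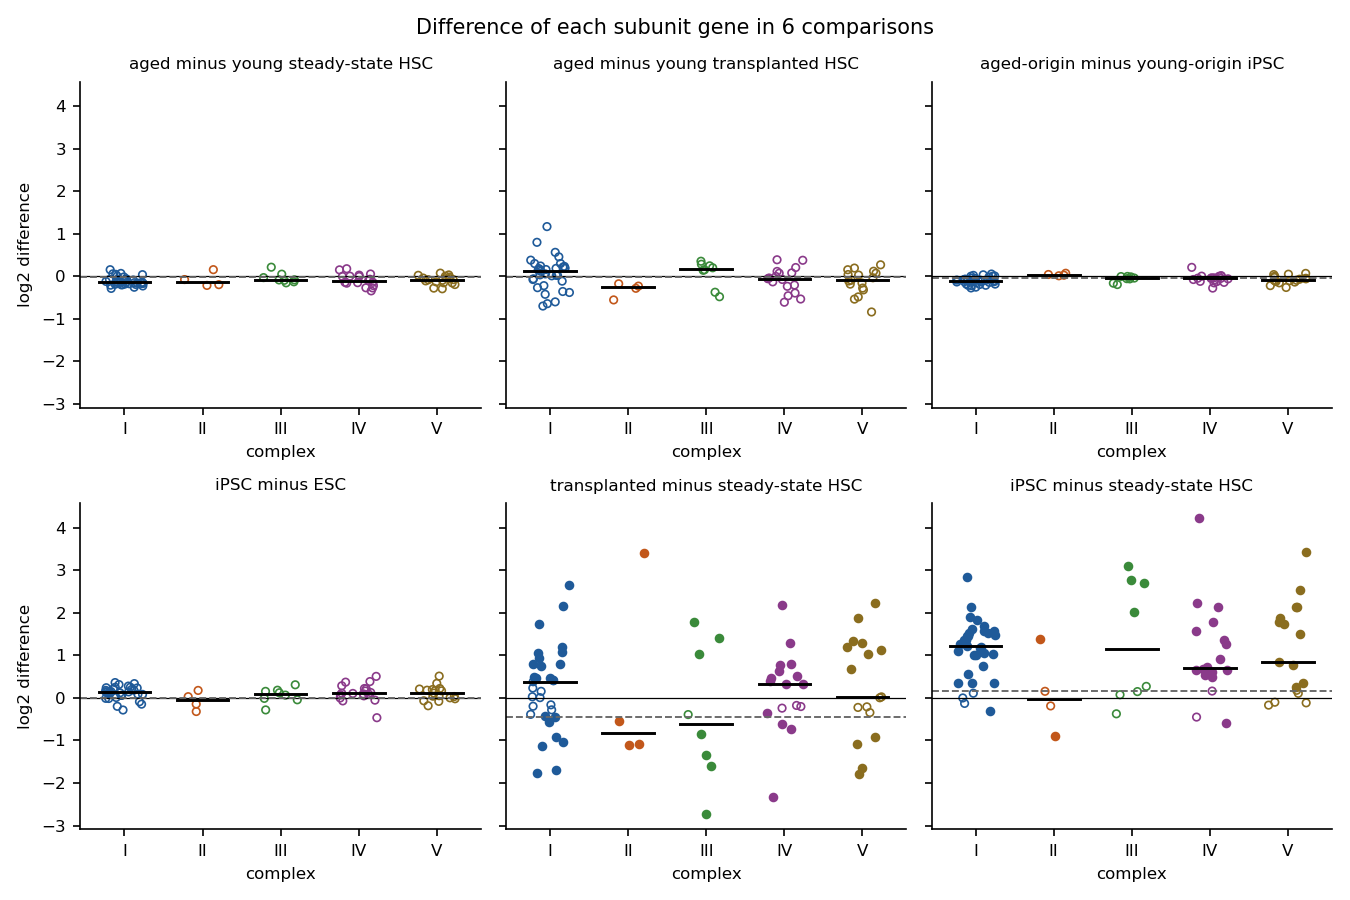
Log2 difference of each tested member (points, filled where called at an adjusted p under 0.05) in 6 comparisons, by complex, with the median per complex (black bar) and the median of all genes (dashed line). Filled points appear in the comparisons of transplanted and of iPSC with steady-state HSC, where the members' medians were 0.23 and 1.08, and the 4 other panels hold open points only.

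In complex I the largest difference was that of Ndufa7, an accessory subunit. Its log2 intensity was 8.52 at the lowest, 8.67 at the median and 8.97 at the highest of the 6 steady-state HSC arrays. In iPSC it was 11.62 and 11.52 for young origin and 11.70 and 11.35 for aged origin. Every iPSC array lay above every HSC array, and the difference was 2.84 ± 0.15 (log2, SE; adjusted p = 3.27e-10). Ndufv3, an accessory subunit of the module that binds NADH, rose by 2.13 ± 0.12 (log2, adjusted p = 9.75e-10). The core subunits that carry the flavin and iron-sulphur clusters rose as well, by 1.00 for Ndufv1, 1.37 for Ndufv2, 0.36 for Ndufs1, 1.58 for Ndufs7 and 1.47 for Ndufs8, all on the log2 scale.

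Ndufa9, Ndufs4 and Ndufb4 were the complex I members with no call, at log2 differences of -0.13, 0.11 and 0.00. Ndufb11 was called (0.34 on the log2 scale, adjusted p = 0.0386), but 7 of 24 alternatives ended its call, and its adjusted p ranged from 0.00874 to 0.15 over them. Ndufc2 was the member called lower, by -0.32 ± 0.11 (log2, adjusted p = 0.0164). Its direction rests on the chosen probe set, since the other probe sets of the gene showed 0.33, 0.92 and 1.02, and their mean gave 0.49 (adjusted p = 0.000996).

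Complex II, succinate dehydrogenase, has 2 catalytic and 2 membrane subunits, and the catalytic ones changed in opposite directions. Sdhb, the iron-sulphur subunit, was 9.65, 9.94 and 10.21 at the lowest, median and highest of the steady-state HSC arrays and 11.41, 11.21, 11.42 and 11.23 in the iPSC arrays. All iPSC arrays lay above the HSC arrays, with a rise of 1.38 ± 0.12 (log2, adjusted p = 1.13e-07). Sdha, the flavoprotein that oxidises succinate, was 11.70, 11.81 and 11.99 in steady-state HSC and 10.94, 10.85, 10.93 and 11.01 in iPSC. Here every iPSC array lay below every HSC array, and Sdha fell by 0.90 on the log2 scale (SE 0.10, adjusted p = 1.31e-06). The mean of the 4 Sdha probe sets gave -0.30. The membrane anchors Sdhc and Sdhd were not called, at 0.16 (95% interval -0.24 to 0.55) and -0.19 (-0.72 to 0.34).

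Complex III, the cytochrome bc1 complex, held 4 members that rose and 4 that were not called. Uqcrq, a small accessory subunit, was 7.24, 8.11 and 8.32 at the lowest, median and highest of the steady-state HSC arrays and 11.02, 10.95, 11.02 and 10.94 in iPSC. The groups did not overlap, with a rise of 3.09 ± 0.21 (log2, adjusted p = 6.14e-09), which became 1.42 when its 4 probe sets were averaged. The small subunits Uqcr10 and Uqcr11 rose by 2.77 ± 0.16 and 2.69 ± 0.27 on the log2 scale. The structural core subunit Uqcrc1 rose by 2.02 ± 0.18. Uqcrc2, the other core subunit, showed 0.27 (adjusted p = 0.0554), and Uqcrfs1, the Rieske iron-sulphur protein that passes electrons to cytochrome c1, showed 0.08 (95% interval -0.31 to 0.46). Uqcrb and Uqcrh, at 0.15 and -0.37, were not called.

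Complex IV, cytochrome c oxidase, uses paired isoforms of several subunits. Cox7a1, the isoform known from heart and skeletal muscle, was 3.40, 3.68 and 4.19 at the lowest, median and highest of the steady-state HSC arrays, where both group means lay below the limit of the dimmest 25% of genes, 4.57 in young and aged HSC alike. In iPSC it was 8.004, 7.95, 7.9996 and 7.84, and ESC were at 7.77 and 7.39. Since the HSC level was that dim, the iPSC mean was set against the limit instead of the HSC mean. The iPSC mean lay 10.4-fold above the limit (3.38 on the log2 scale). Over the alternatives, the log2 difference between iPSC and steady-state HSC ran from 2.01 to 4.33. Cox7a1 is counted among the members called higher, but it passed the filter of this fit only through its iPSC and ESC arrays. The broadly expressed partner Cox7a2 rose too, by 2.22 ± 0.14 (log2), from 10.64 to 11.29 across the HSC arrays to 13.18 to 13.29 across the iPSC arrays.

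Cox4i1, the general isoform of the regulatory subunit, rose by 1.58 ± 0.11 (log2, adjusted p = 6.80e-09), while Cox4i2, the isoform linked to low oxygen, showed 0.16 ± 0.16 and was not called. Cox6a1 rose by 2.14 ± 0.14 and its muscle isoform Cox6a2 by 0.50 ± 0.14. Cox6b1 and its testis isoform Cox6b2 rose by 0.73 and 1.26, Cox8a, Cox8b and Cox8c by 0.92, 0.68 and 0.55, and Ndufa4 and Ndufa4l2 by 0.60 and 0.65, all on the log2 scale. The dim isoforms shrank with a pseudocount of 64, to 0.32 for Cox6a2, 0.78 for Cox6b2, 0.28 for Cox8b and 0.34 for Ndufa4l2, and averaged probe sets gave 0.29 for Cox6a2 and 0.61 for Cox8a, all still called. Cox7b2 did not pass the filter on dim genes in any fit. Cox7a2l was the member called lower, at 12.70 in steady-state HSC and 12.11 in iPSC (means), a fall of 0.60 on the log2 scale (SE 0.14, adjusted p = 0.00162) shown in the same direction by its other probe sets.

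In complex V the members with the largest differences belong to the ring and the small membrane subunits. Atp5g1, one of the genes for the same mature ring protein, was 7.34, 7.67 and 8.06 at the lowest, median and highest of the steady-state HSC arrays and 11.23, 11.15, 11.12 and 11.07 in iPSC. The arrays did not overlap, with a rise of 3.44 ± 0.12 (log2, adjusted p = 3.44e-12), and 1.33 when averaged with its dim second probe set. Atp5g2 rose by 1.78 ± 0.15, or 0.50 with its probe sets averaged. Atp5g3, the remaining ring gene, showed 0.27 ± 0.11 (adjusted p = 0.0331), and 9 of 24 alternatives ended that call, with adjusted p from 0.00678 to 0.143.

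Atp5l, Atp5j2 and Atp5k, small subunits of the membrane part, rose by 2.54, 2.15 and 2.13 on the log2 scale. In the catalytic head, Atp5b, the subunit that forms ATP, was 12.35, 12.54 and 12.61 at the lowest, median and highest of the steady-state HSC arrays and 12.47, 12.29, 12.51 and 12.39 in iPSC. These ranges overlapped, and the difference was -0.10 (95% interval -0.35 to 0.15). Atp5a1, the alpha subunit of the head, and Atp5c1, the gamma subunit of the central stalk, were not called either, at -0.17 (-0.44 to 0.10) and 0.18 (-0.05 to 0.41), while Atp5d and Atp5e, the delta and epsilon subunits of that stalk, rose by 1.73 and 1.89. Averaging the 3 probe sets of Atp5a1 turned its value to 0.30 (adjusted p = 0.0433).

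**Figure D3:**
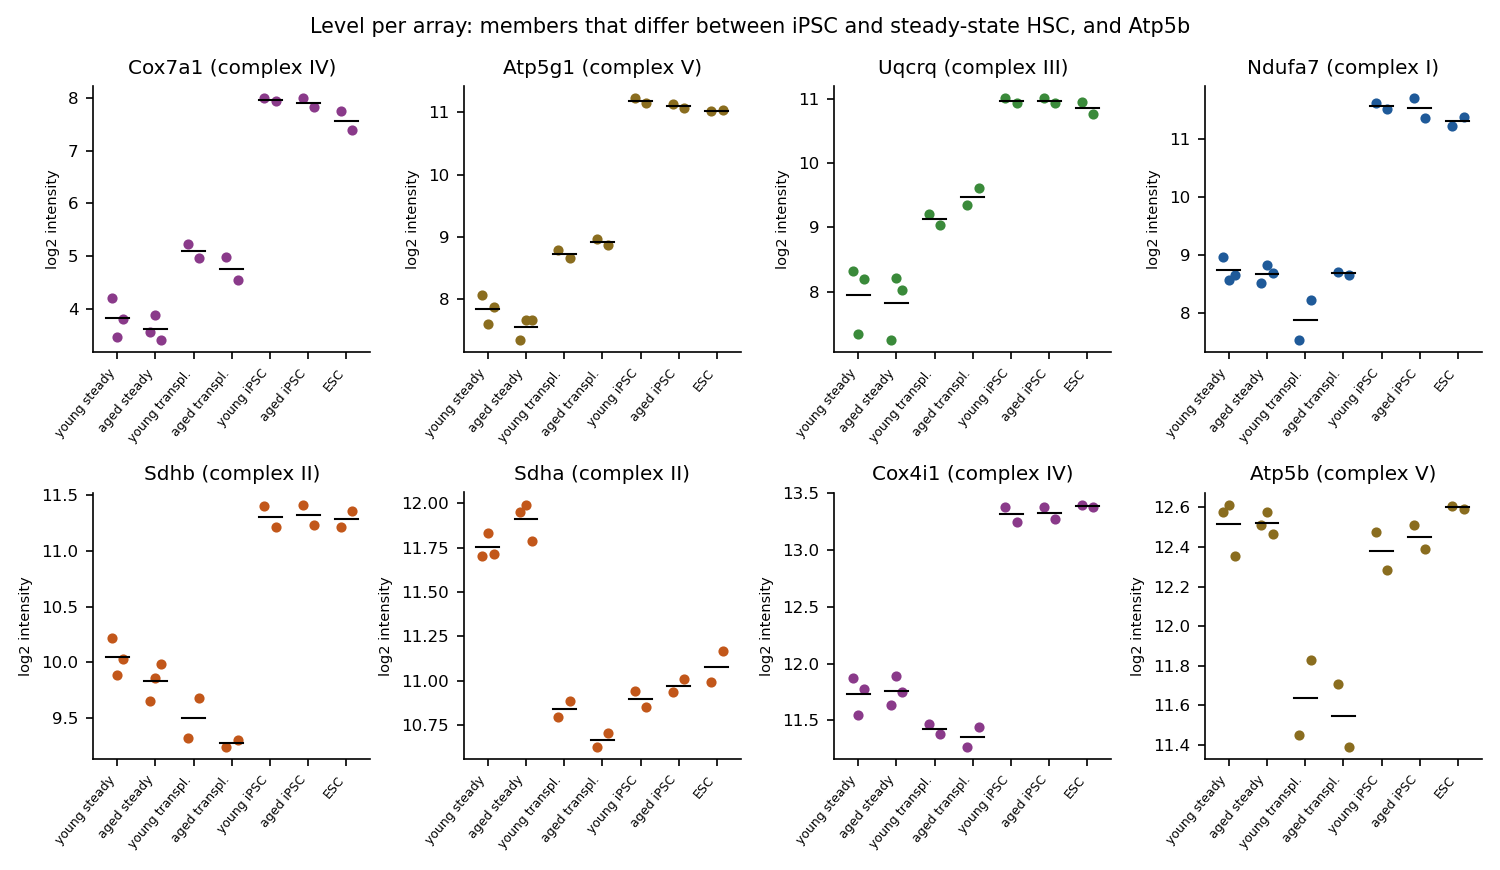
Log2 intensity of 8 members in each array (points) with the group mean (black bar), for the 7 groups, with an axis range per gene that does not start at 0. Cox7a1, Atp5g1, Uqcrq, Ndufa7, Sdhb and Cox4i1 are higher in every iPSC and ESC array than in every HSC array, Sdha is lower in iPSC than in steady-state HSC, and Atp5b overlaps between iPSC and steady-state HSC.

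Of the 64 called members, 36 had another probe set above the filter, and in 5 of them, Ndufc2, Ndufb8, Cox5b, Atp5pb and Atp5g2, at least 1 went the opposite way. Without those 5, 57 were higher and 2 lower. Without the 4 transplanted arrays in the fit, 62 were called higher and 4 lower, where 47.4% of all genes were called higher and 37.3% lower.

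Values of other kinds moved with the cell type. Of 18 cell cycle genes tested, 15 (83.3%) were higher in iPSC and 0 lower, against 41.8% and 34.7% of all genes. Their median was 1.51, with rises of 3.31 for Ccne1, 2.73 for Ccna2 and 1.51 for Mcm3. Of 9 feeder fibroblast markers, 7 lay above the 25th percentile in each iPSC group and also in each steady-state HSC group. The mean over this list was 6.21 to 6.88 in the iPSC arrays and 5.14 to 5.41 in the steady-state HSC arrays, with Fn1 at 10.67 and 10.61 in young-origin and aged-origin iPSC and Col1a1 at 5.51 and 4.96. The part of cell division and of feeder RNA in the members' differences was not tested.

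The values were also split by the promoter letters. The 15 members with an NRF1 core had 10 called higher and 1 lower with a median of 1.20, and the 50 tested without it had 41 higher and 2 lower with a median of 1.21. With the GABPA core, 13 of 17 were higher with a median of 1.10, against 38 of 48 and 1.23 without it. The transcripts of the factors themselves moved in different directions: Nrf1 rose by 2.15 ± 0.26 (log2, or 0.40 with its probe sets averaged), Gabpa fell by 1.05 and Yy1 fell by 1.26 (averaged probe sets of Yy1 gave -0.36). Ppargc1b, a coactivator of mitochondrial biogenesis, showed 0.12 and was not called.

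The rest of the pathway shared the direction in part. Of 47 complex assembly factors tested, 28 (59.6%) were higher in iPSC and 6 (12.8%) lower, against 41.8% and 34.7% of all genes. Their median was 0.47. Uqcc2, which assembles complex III, rose by 3.35 ± 0.15 (log2, adjusted p = 5.83e-11). Coa5, an assembly factor of cytochrome oxidase, showed -1.83, and Higd1a, a small protein bound to cytochrome oxidase, showed 1.86, but with averaged probe sets these became -0.05 (adjusted p = 0.781) and -0.63 (adjusted p = 0.00597). Cytochrome c (Cycs) rose by 1.55 ± 0.17 (0.96 with averaged probe sets), cytochrome c1 (Cyc1) by 1.21 ± 0.18 and the acyl carrier Ndufab1 by 1.53 ± 0.14, the last with 0.07 for averaged probe sets (adjusted p = 0.553). Etfa, Etfb and Etfdh, which feed electrons from fatty acid oxidation, fell by 0.75, 0.47 and 1.23.

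Counts of the remaining lists are read against the 41.8% of all genes called higher and 34.7% called lower in iPSC. Of 17 genes of the tricarboxylic acid cycle and pyruvate dehydrogenase, 6 (35.3%) were higher and 4 (23.5%) lower. Both shares lay below those of all genes, and the median was -0.02. Malate dehydrogenase Mdh2, Pdhx and Idh3g rose by 1.24, 1.25 and 0.88, and Idh2 fell by 1.18. Of 16 regulators of mitochondrial biogenesis tested, 6 (37.5%) were higher, Polrmt and Nrf1 among them, and 4 (25%) were lower. Of 11 genes of the hypoxia list, 5 (45.5%) were higher and 2 (18.2%) lower, with Epas1, the HIF-2 alpha factor, at 2.50 and the mitophagy receptor Bnip3 at -1.17. This list overlaps others: Cox4i2 and Ndufa4l2 are also members, and Higd1a is also in the assembly list. Ndufa4l2 and Higd1a are among the 5 called higher.

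The comparison of transplanted with steady-state HSC uses the same 6 steady-state arrays as the one before, so each comparison's values are given on their own. Of 79 members tested, 36 were higher and 23 lower in transplanted HSC, where 19.8% of all genes were called higher and 50.1% lower. The members' median was 0.23 and that of all genes -0.46, and 59 of 79 members lay above the latter. With each array centred on its median, the split was 27 higher and 29 lower with a members' median of 0.03, and the median of all genes moved to -0.66. In that fit 15% of all genes were called higher and 58% lower. Without aged transplanted array 2 the members' median was 0.02. Ranked by mean log2 intensity over all arrays, the brightest 27 members had 7 higher and 12 lower, with a median of -0.24. The middle 27 had 15 higher and 5 lower (0.41). Of the dimmest 27, 25 were tested, with 14 higher and 6 lower (0.38). The part of probe-set brightness in these directions was not tested. The transplanted and steady-state arrays did not overlap in 58.2% of the members tested and in 54.8% of all genes tested. Control probe sets differed along the transcript between the same arrays, with Gapdh's 3′ minus 5′ signal at 1.79 to 2.37 in transplanted HSC against 2.88 to 3.32 in steady-state HSC, and the part of this in the members' differences was not tested. The mean over the 8 HSC markers was 9.46 to 9.84 in the transplanted arrays and 11.27 to 11.60 in the steady-state arrays, and its part in the members' differences was not tested.

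Every complex held members in both directions: 14 higher and 8 lower in complex I, 1 and 3 in complex II, 3 and 4 in complex III, 10 and 4 in complex IV, and 8 and 4 in complex V. The median differences were 0.38, -0.82, -0.62, 0.33 and 0.02 in the same order. The members called higher in complex I include Ndufb4, which was 4.31 to 4.66 in the steady-state arrays. The 25th percentile of all genes was 4.57 in young and in aged steady-state HSC, so Ndufb4 cannot be separated from background there. Its transplanted arrays were 5.38 and 4.83 for young and 7.09 and 5.47 for aged donors.

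Sdhc, a membrane anchor of complex II, differed most. It was 7.92, 8.03 and 8.28 at the lowest, median and highest of the steady-state arrays and 12.22, 10.99, 11.18 and 11.47 in the transplanted arrays. All 4 transplanted arrays lay above all 6 others, with a rise of 3.42 ± 0.21 (log2, adjusted p = 4.18e-07), while the other Sdhc probe set showed 0.71 and the mean of both 2.06. Sdha fell by 1.08, Sdhb by 0.55 and Sdhd by 1.10 on the log2 scale. For Sdha a nearly as bright probe set showed 0.46, and for Sdhd the young transplanted array 2, at 9.78, lay within the steady-state range while the other 3 were 8.11, 8.71 and 8.08.

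Ndufa5, an accessory subunit of the complex I arm in the matrix, was 9.004, 9.40 and 9.75 in steady-state HSC and 12.31, 11.89, 11.95 and 12.10 in transplanted HSC. It rose by 2.66 ± 0.17 (log2, adjusted p = 4.77e-07), with 1.55 at its other probe set. Ndufb7, an accessory subunit of the membrane arm, rose by 2.16 ± 0.29, or 1.33 with averaged probe sets. Ndufs1, the largest iron-sulphur core subunit, was 9.68, 9.82 and 9.94 in steady-state HSC and 8.27, 8.42, 7.46 and 8.03 in transplanted HSC. Its arrays did not overlap, and Ndufs1 fell by 1.77 on the log2 scale (SE 0.14, adjusted p = 2.13e-06). Ndufa9 fell by 1.69, with transplanted arrays spread from 8.14 to 10.22.

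Uqcrfs1, the Rieske protein, was 10.52, 10.62 and 10.92 in steady-state HSC and 7.62, 8.69, 7.94 and 7.41 in transplanted HSC, all below. It fell by 2.74 on the log2 scale (SE 0.21, adjusted p = 1.55e-06), and Uqcrc2, Uqcrb and Uqcrc1 fell by 1.60, 1.35 and 0.85. The small subunits Uqcr11, Uqcrq and Uqcr10 rose by 1.77, 1.42 and 1.02, though 1 other probe set of Uqcrq and 1 of Uqcr10 went the opposite way.

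In complex IV, Cox6b2 was 5.91, 6.07 and 6.36 in steady-state HSC and 8.67, 8.14, 8.39 and 7.96 in transplanted HSC, a rise of 2.19 ± 0.17 (log2, adjusted p = 1.42e-06). Cox7c, a small structural subunit, was 7.81, 8.31 and 9.10 in steady-state HSC and 7.45, 4.96, 5.79 and 6.21 in transplanted HSC. The groups did not overlap but both were wide, and Cox7c fell by 2.33 on the log2 scale (SE 0.45, adjusted p = 0.00095). Cox4i1 fell by 0.36 and Cox4i2 rose by 0.51. Cox7a1 lay below the filter in this fit, at 3.40 to 4.19 in steady-state HSC and 4.55 to 5.22 in transplanted HSC, and was not tested.

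In complex V, Atp5e, the epsilon subunit, was 8.84, 9.29 and 9.82 in steady-state HSC and 11.52, 11.39, 11.28 and 11.87 in transplanted HSC, a rise of 2.23 ± 0.22 (log2, adjusted p = 7.91e-06). Atp5pb, a subunit of the peripheral stalk, was 11.54, 11.68 and 11.82 in steady-state HSC and 10.31, 9.91, 9.56 and 9.70 in transplanted HSC. It fell by 1.80 on the log2 scale (SE 0.13, adjusted p = 1.22e-06), yet its other probe set showed 0.02 and the mean of both -0.89. The ring genes split, as Atp5g1 rose by 1.12 and Atp5g2 by 0.69 while Atp5g3 fell by 1.66, and Atp5b of the head and Atp5c1 of the stalk fell by 0.92 and 1.09. Atp5a1 was not called at -0.34, and its other probe sets showed -1.57 and 5.22, the former the brighter.

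**Figure D4:**
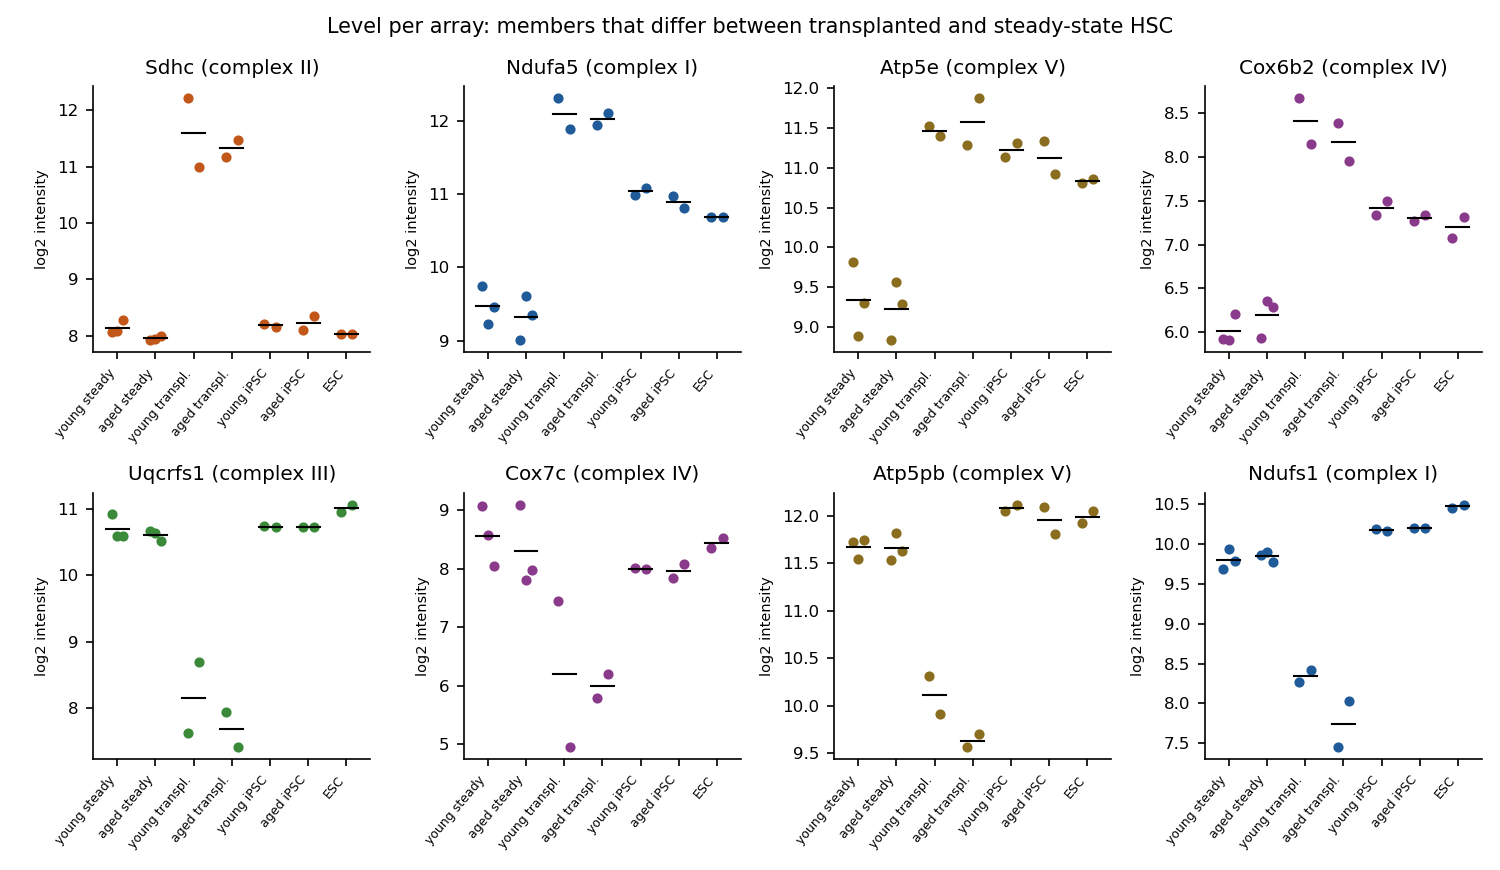
Log2 intensity of 8 members in each array (points) with the group mean (black bar), for the 7 groups, with an axis range per gene that does not start at 0. Sdhc, Ndufa5, Atp5e and Cox6b2 are higher and Uqcrfs1, Cox7c, Atp5pb and Ndufs1 lower in every transplanted array than in every steady-state HSC array.

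Probe sets of the same gene often disagreed. Of the 59 called members 32 had another probe set above the filter, and in 15 of these at least 1 went the opposite way. Leaving the 15 out, 27 members were higher and 17 lower. Of 18 cell cycle genes, 6 (33.3%) were higher and 7 (38.9%) lower, against 19.8% and 50.1% of all genes.

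**Figure D5:**
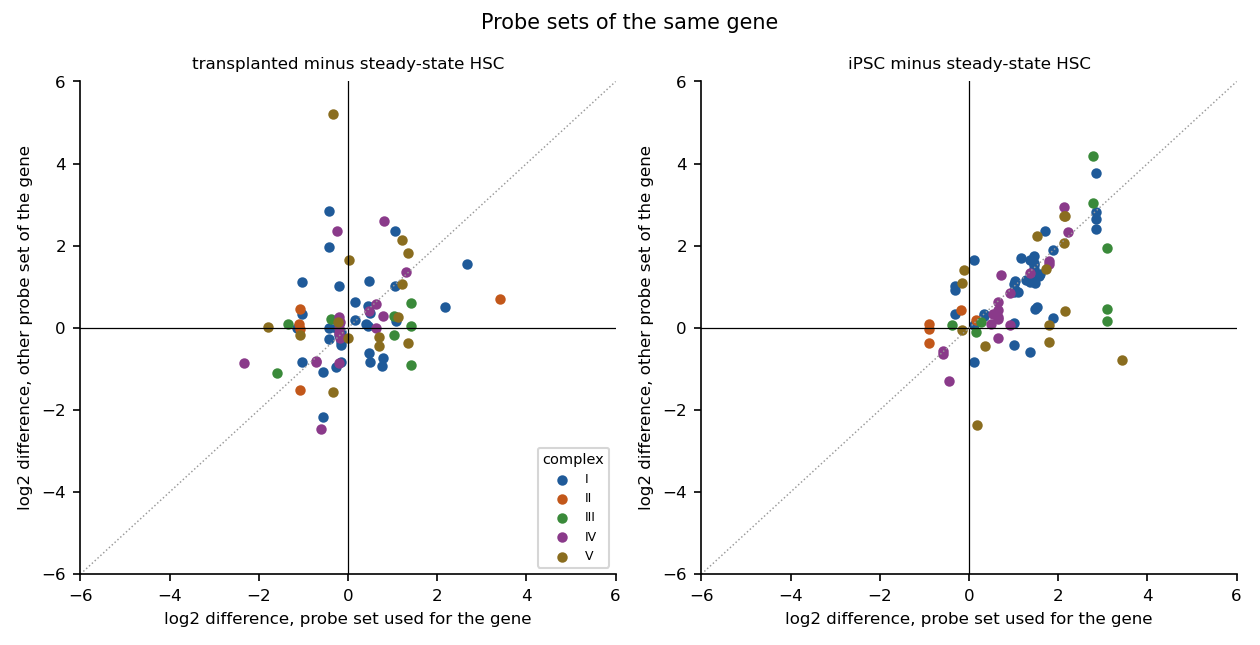
Log2 difference of each of the 83 other probe sets of the members (vertical) against that of the probe set used for the gene (horizontal), in 2 comparisons, coloured by complex, with a dotted line of equality. Points above 0 on one axis and below 0 on the other are probe sets that go the opposite way, and of the called members 15 of 32 in the left panel and 5 of 36 in the right panel had one above the filter on dim genes.

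The other lists are read against the 19.8% of all genes that were higher and the 50.1% that were lower in transplanted HSC. Of 17 tricarboxylic acid cycle genes, 14 were lower and 1 higher, with a median of -1.25, and Pdha1, Sucla2 and Suclg1 fell by 2.30, 2.13 and 1.88 on the log2 scale. Averaged probe sets gave -1.03 for Pdha1 and -0.37 for Sucla2, both still called. Of 47 assembly factors 26 were lower and 10 higher, with Ndufaf1 and Foxred1 falling by 2.73 and 2.15 and Cox20 rising by 1.83 (3.21 with averaged probe sets). Cytochrome c (Cycs) and cytochrome c1 (Cyc1) fell by 2.20 and 2.11, with -0.91 for Cycs under averaged probe sets, and Ndufab1 showed -1.31, which turned to 0.49 with averaged probe sets (adjusted p = 0.00574). Of 17 regulators 7 were lower and 2 higher, with Esrra at -1.82 (-0.69 with averaged probe sets), Tfb2m at -1.81 and Gabpa at -2.14, the last turning to 0.40 with averaged probe sets (adjusted p = 0.0332). Of 11 hypoxia genes 6 were lower and 3 higher, with Bnip3 at -1.89, Pdk2 at 1.86 (0.91 with a pseudocount of 64) and Hif1a at -1.67, the last at 0.00 with averaged probe sets (adjusted p = 0.984). These hypoxia genes include the members Cox4i2 and Ndufa4l2 and the assembly list's Higd1a.

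No subunit gene was called with age in steady-state HSC. Of 79 members tested 0 were called higher and 0 lower by limma, and 0 reached an unadjusted p under 0.05 (6.31% of all genes did so), where 0.96% of all genes were called higher and 0.22% lower. The median difference, aged minus young, was -0.10 against -0.02 over all genes, with 60 of 79 members and 7364 of 13645 genes below 0. The median rested in part on single arrays: it was -0.02 without aged array 1, -0.03 without young array 1, -0.17 without aged array 2 and -0.19 without young array 2. The 95% interval lay within 2-fold either way for 75 of 79 members. Cox6a1 had the smallest p of all members: it was 11.48, 11.29 and 11.83 in young and 10.86, 11.31 and 11.42 in aged HSC, ranges that overlapped, and the difference was -0.34 ± 0.20 (log2, adjusted p = 1). The smallest p of the other complexes belonged to Ndufs7 at -0.28, Sdhb at -0.21, Uqcrh at 0.22 and Atp5g1 at -0.29, the last at 0.15 with averaged probe sets.

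Transplanted HSC of aged and young donors showed a wider spread and again no called member. Of 79 members, 0 were called in either direction by limma and 10 (12.7%) had an unadjusted p under 0.05, as did 15.2% of all genes, where 0.55% of all genes were called higher and 0.799% lower. With only the arrays of this comparison in the fit, the count of 10 became 0, and 0% of all genes were called in either direction. The main fit shares the spread of all 10 HSC arrays. Replicates correlated at 0.9519 and 0.9713 in young and aged transplanted HSC. In steady-state HSC this was 0.9897 to 0.9941 in young and 0.9905 to 0.9932 in aged. The count also fell without aged array 1 and rose without young array 2. The median difference was 0.02, and its direction turned without aged array 2 (-0.06), without young array 1 (-0.02), with averaged probe sets (-0.05) and with each array centred on its median (-0.01). Of the 79 intervals, 57 lay within 2-fold. Ndufa7 was 7.54 and 8.24 in young and 8.71 and 8.67 in aged transplanted HSC. The pairs did not overlap, as in 31.6% of the members and 31.7% of all genes tested. The difference of Ndufa7 was 0.80 ± 0.26 (log2, adjusted p = 0.174). Leaving out young transplanted array 1 gave -1.39 for Sdhd and -1.02 for Uqcrfs1. Without young array 2 these values turned to 0.28 and 0.06, and Ndufa7 was at 1.15. In each case the lone array of a group is assumed to vary like the other groups.

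The age effects of both settings were also set against each other in an interaction term. None of 79 members was called by limma and 3 (3.8%) had an unadjusted p under 0.05, as did 9.73% of all genes, where 0.0366% of all genes were called higher and 0.0879% lower. That count rose without young transplanted array 2, which leaves 1 array in its group. Ndufa7 had the smallest p, at 0.86 ± 0.33 (log2, adjusted p = 0.432), and its value was 1.21 without that array. For 39 of the 79 members the 95% interval of the difference lay within 2-fold.

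Among the other lists, Epas1 was higher in aged HSC in both settings. It differed by 1.70 ± 0.20 (log2, adjusted p = 0.00247) in steady-state HSC, lost in 1 of 20 alternatives (averaged probe sets, 0.84, adjusted p = 0.077), and by 1.53 ± 0.24 (adjusted p = 0.0224) in transplanted HSC, lost in 5 of 21, with adjusted p from 0.00166 to 0.97 there. Surf1, an assembly factor of cytochrome oxidase, differed by 0.99 ± 0.20 (adjusted p = 0.0468) in transplanted HSC, a call lost in 13 of 21 alternatives (adjusted p from 0.00505 to 0.9995). Cell cycle genes had medians of -0.46 and -0.34 with age in steady-state and transplanted HSC, with 0 of 18 called by limma in either. At an unadjusted p under 0.05 there were 4 and 2 of them, where 6.31% and 15.2% of all genes passed.

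iPSC of aged and young origin held no called member either. None of 79 members was called by limma, with 0 at an unadjusted p under 0.05 (4 without aged-origin array 1, and 4.98% of all genes), where 0.00733% of all genes were called higher and 0% lower. The median difference was -0.07 against -0.03 over all genes, but -0.01 without aged-origin array 2, -0.12 without aged-origin array 1 and 0.0001 with quantile normalisation. Below 0 lay 60 of 79 members and 8071 of 13645 genes. For all 79 members the 95% interval lay within 2-fold. Ndufb5 had the smallest p: it was 11.20 and 11.29 in young-origin and 11.04 and 10.91 in aged-origin iPSC, a difference of -0.27 ± 0.13 (log2, adjusted p = 0.976). Per complex, the smallest p otherwise belonged to Sdha, Uqcrc2, Ndufa4l2 and Atp5h.

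iPSC and ESC did not differ in any called member. Of 79, 0 were called by limma and 12 (15.2%) had an unadjusted p under 0.05, as did 12.7% of all genes, where 0.044% of all genes were called higher and 0.066% lower. That count was 1 with all 16 arrays in the fit, 18 with quantile normalisation, 24 with a pseudocount of 64 and 25 with an intensity trend and robust prior. It also moved both ways when 1 array was left out. The median, iPSC minus ESC, was 0.11 against 0.00 over all genes, with 60 of 79 members and 6867 of 13645 genes above 0. For all 79 members the 95% interval lay within 2-fold. Cox8b, an isoform known from heart and muscle, had the smallest p. It was 5.60, 5.76, 5.86 and 5.92 in iPSC and 5.31 and 5.25 in ESC, which did not overlap, and the difference was 0.51 ± 0.11 (log2, adjusted p = 0.166), or 0.21 with a pseudocount of 64. iPSC and ESC arrays did not overlap in 31.6% of the members and 23.8% of all genes tested. Cox7c was the member with the next smallest p, at -0.47 ± 0.12 (adjusted p = 0.222), and Cox7a1 showed 0.37.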

How the data were processed

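The authors deposited 1 table of intensity values on a linear scale (4.53 to 31493, 45101 probe sets, 16 arrays). Their summarisation and normalisation are not stated in any source at hand, and their scaling was kept. Per the labels, RNA came from the QIAGEN microRNeasy kit. The log2 of each intensity was taken as it stood. Genes were named from the platform annotation, and all 81 members matched RefSeq gene IDs. Comparisons were fitted with limma 3.58.1 (lmFit, eBayes) in R 4.3.3 on 10 HSC arrays, 6 iPSC and ESC arrays, or all 16. The dimmest 25% of genes by mean log2 were dropped from each fit, leaving 13645, and adjusted p is Benjamini-Hochberg over these. Fits were tested on simulated data. Members, lists and tests were chosen with earlier results of these data known. Named genes were the largest called members (up to 5 per direction), the smallest p per complex, isoforms, the brightest and dimmest probe set per complex and up to 3 called genes per other list; other genes in the text were chosen after their values were seen. Alternatives were other scalings, filters, probe-set averaging, priors, array sets, a pseudocount of 64, replicate blocks and each array left out. Fits without the transplanted arrays, without members whose probe sets disagree, and with crossed replicate numbers were added after seeing the data. With 2 or 3 arrays a group, array number limits the precision.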

Additional observations from a re-analysis of the deposited data

How the results depend on the processing

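The members' counts of calls stayed within 1.5 times of the reported ones under the other scalings, filters, priors and array sets, and the call lists of steady-state ageing, iPSC origin and iPSC minus ESC held 0 members in all of them. Leaving out 1 array at a time gave 52 to 61 called members for transplanted minus steady-state HSC, 60 to 66 for iPSC minus steady-state HSC, 0 to 3 for age in transplanted HSC and 0 to 2 for the difference of the age effects. The members' median for transplanted minus steady-state HSC moved from 0.23 to 0.0277 with each array centred on its median, and to between 0.0214 and 0.3349 with 1 array left out. Averaging a gene's probe sets turned the direction of 9 named values: Atp5g1 with age in steady-state HSC (0.15), Sdha (0.0238) and Atp5g1 (-0.11) in the difference of the age effects, Ndufab1 (0.49), Gabpa (0.40) and Mcm6 (-0.22) in transplanted minus steady-state HSC, and Ndufc2 (0.49), Higd1a (-0.63) and Atp5a1 (0.30) in iPSC minus steady-state HSC. Without 1 array, age in transplanted HSC ranged from -1.39 to 0.28 for Sdhd and from -1.02 to 0.0602 for Uqcrfs1. Ndufb4, near 0 in iPSC minus steady-state HSC, ranged from -0.16 to 0.16 without 1 array and was 0.0047 with a pseudocount of 64. The labels do not say whether replicate numbers pair the samples. Deviations of arrays with the same number correlated at -0.16 to 0.16 over all genes. This cannot decide the question, since groups of 2 arrays give only 1 value per pair of groups. With the number as a replicate block, 52 members were called for transplanted minus steady-state HSC, 31 higher and 21 lower, and 0 in each comparison by age. For transplanted minus steady-state HSC, 17.4% of all genes were then higher and 47.3% lower. A crossed replicate block for the transplanted arrays, chosen after seeing the data, gave 32 higher and 21 lower, with 17.9% and 48% of all genes. The cause of these changes was not tested beyond the construction of each alternative. The deposited table holds no detection calls, so dim probe sets such as Cox7b2 and Ndufb4 cannot be separated from background.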
